A study of Mus with 12 samples.

Results

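The 8 rows described here carry gene symbols that begin with Hist1h, the older naming of the replication-dependent histone genes of the large mouse cluster on chromosome 13. They were chosen by that symbol pattern from the 27294 genes of the deposited table, which gives raw read counts and FPKM (counts divided by transcript length and library size) per library. The 8 rows comprise 3 H2A genes (Hist1h2an, Hist1h2ao and Hist1h2ap), 3 H2B genes (Hist1h2bp, Hist1h2bq and Hist1h2br) and 2 H4 genes (Hist1h4m and Hist1h4n). Most clustered histone genes appear in the table under newer symbols such as H1f2 or H2bc4, and 53 such rows were found through the older symbols in the RefSeq gene table. Those 53 rows serve only as a comparison.

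The libraries came from primary mouse peritoneal macrophages, per the labels, in 4 groups of n = 3 libraries: knockout (KO) cells with oxidised low-density lipoprotein (oxLDL), untreated KO cells, wild-type (WT) cells with oxLDL, and untreated WT cells. The treatment label reads oxLDL while the titles of the same libraries read LDL. The knocked-out gene, the promoter of any Cre, the dose and the time are not given in the labels, and WEE1, a kinase that delays mitosis, is named only in the title of the series. Wee1 had 1.38 ± 0.188 FPKM in KO cells with oxLDL, 1.48 ± 0.228 in untreated KO cells, 1.62 ± 0.169 in WT cells with oxLDL and 3.05 ± 0.231 in untreated WT cells (SD, n = 3 each). The labels do not say whether replicates came from separate animals, so the p-values measure the spread between these libraries, which may be technical. The summed gene counts of a library, its depth, lay between 53588814 and 76809931, with replicate 2 the shallowest in both WT groups.

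Replication-dependent histone genes supply the bulk histone proteins that package newly copied DNA, and they are transcribed mainly in S phase. Their messenger RNAs end in a conserved stem-loop in place of a poly(A) tail, and the stem-loop is bound by the protein SLBP. Selection with oligo(dT), used for these libraries, therefore recovers mostly the minor polyadenylated or longer forms of such transcripts, which some of these genes also make, including in cells that no longer divide. A low value below is thus a low level of polyadenylated RNA and not of total histone RNA. In bulk libraries, fewer cells of a type and less RNA per cell cannot be told apart.

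All 8 genes lie within 50.7 kb of chromosome 13, from 21786826 to 21837530 on GRCm38, the build whose gene positions the table's coordinates match. Hist1h2an (ENSMUSG00000069309, 21786826 to 21787218, minus strand) and Hist1h2bp (ENSMUSG00000069308, 21787461 to 21789213, plus strand) form an H2A and H2B pair transcribed away from each other, the usual arrangement of these genes. Hist1h2bq (ENSMUSG00000069307, 21806612 to 21810197, minus strand), Hist1h2ao (ENSMUSG00000094248, 21810465 to 21810944, plus strand) and Hist1h4m (ENSMUSG00000069306, 21811746 to 21812147, plus strand) follow. After a gap of 19.6 kb come Hist1h4n (ENSMUSG00000069305, 21831767 to 21832196, minus strand), Hist1h2ap (ENSMUSG00000094777, 21833026 to 21833507, minus strand) and Hist1h2br (ENSMUSG00000069303, 21833743 to 21837530, plus strand).

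The last 6 genes formed 3 pairs placed as mirror images. In the RefSeq annotation of GRCm38.p6, Hist1h2bq and Hist1h2br, Hist1h2ao and Hist1h2ap, and Hist1h4m and Hist1h4n lie on opposite strands at equal distances from position 21821971. Their inner edges match to the base. The RefSeq models are 3788 bases long for both Hist1h2bq and Hist1h2br, 552 for Hist1h2ao and 452 for Hist1h2ap, and 405 for Hist1h4m and 406 for Hist1h4n. How reads shared by near-identical copies were counted is not stated in the labels, so the split of counts within each pair is uncertain. The table gives Hist1h2bq and Hist1h2br the transcript class nonsense-mediated decay, a pathway that degrades messages with a premature stop, and lists 1 transcript for each. Hist1h2bp has 2 listed transcripts, and the other 5 rows are protein-coding with lengths of 393 to 482 bases.

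**Figure D1:**
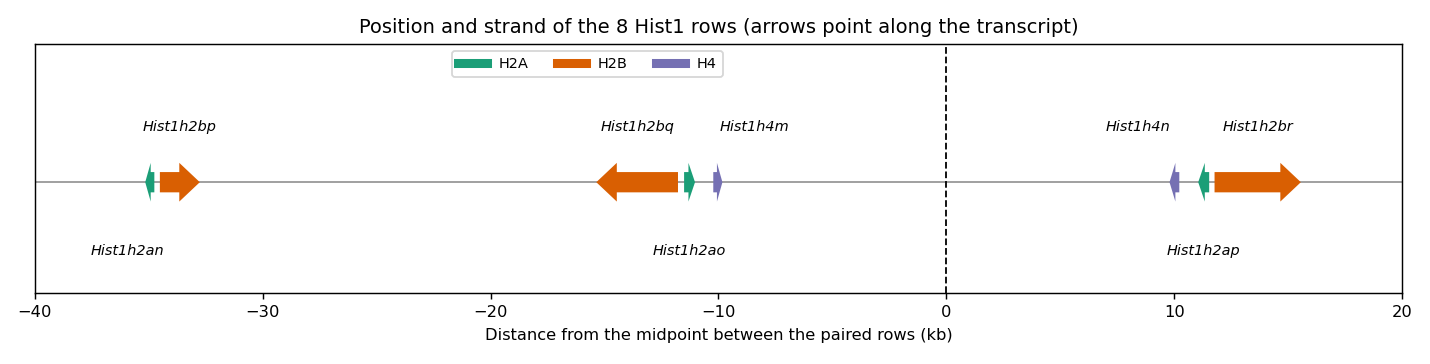
Positions of the 8 Hist1 genes, with the distance in kb from the midpoint between the paired genes on the x axis and the histone family by colour. Arrows point along the transcript. The 3 genes left of the dashed midpoint from Hist1h2bq to Hist1h4m mirror the 3 on its right, with opposite strands.

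The 8 genes were close to the limit of detection in every library. Together they held 172 counts over the 12 libraries, against 61990 counts in the 53 other clustered histone rows, which is 0.277% of the clustered histone counts. No gene exceeded 19 counts or 0.171 FPKM in any library. Hist1h2br had 65 counts in all, Hist1h2bq 54, Hist1h2bp 27 and Hist1h4m 15. The remaining 4 genes had 5 counts (Hist1h2ap), 3 counts (Hist1h2an), 2 counts (Hist1h4n) and 1 count (Hist1h2ao). A gene with no count in a library could still have had up to 3 counts, which is 0.0391 to 0.056 CPM (counts scaled to the library total) depending on the library, a limit that covers counting error only.

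Summed over the 8 genes, the libraries of KO cells with oxLDL had 38, 29 and 22 counts, and those of untreated KO cells had 20, 18 and 2. WT cells with oxLDL had 1, 0 and 1 counts, and untreated WT cells had 11, 1 and 29. Every library of KO cells with oxLDL thus lay above every library of WT cells with oxLDL, while the 2 untreated groups overlapped and each held a library with 1 or 2 counts. Scaled to the library total, the sums averaged 0.389 ± 0.106 CPM in KO cells with oxLDL, 0.176 ± 0.13 in untreated KO cells, 0.00892 ± 0.00772 in WT cells with oxLDL and 0.182 ± 0.186 in untreated WT cells (SD, n = 3 each). Of the sum of the 4 group means, KO cells with oxLDL held 51.4%, untreated KO cells 23.3%, WT cells with oxLDL 1.18% and untreated WT cells 24.1%. These sums add the mirror copies Hist1h2br and Hist1h2bq, with 65 and 54 counts in all. Reads shared by the copies may have been counted more than once, because their handling is not stated. The share of untreated WT cells rested on replicate 3, which had 29 of the group's 41 counts, and was 12.4% without it.

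**Figure D2:**
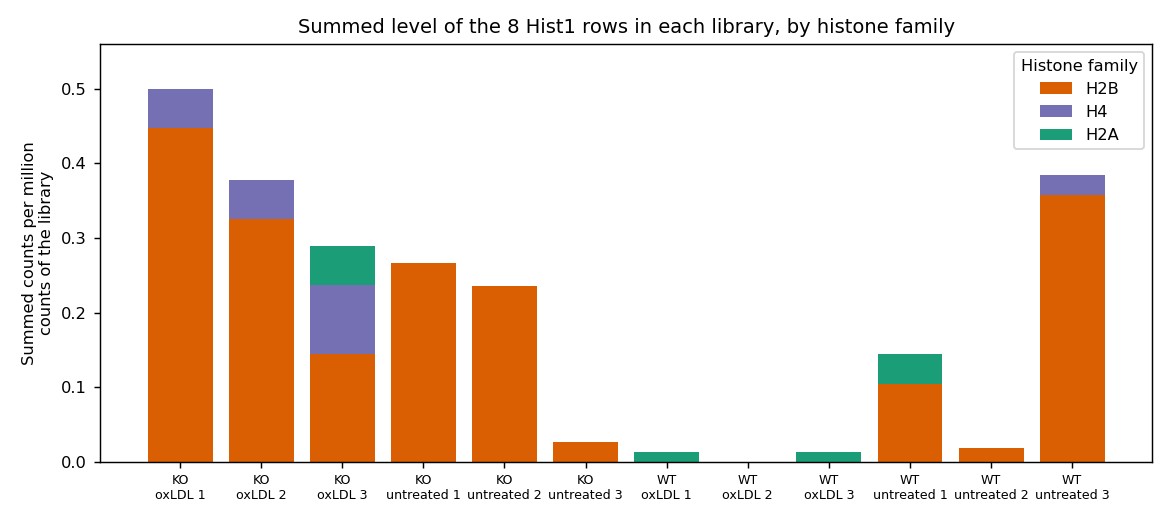
Summed CPM of the 8 Hist1 genes in each library (y axis), stacked by histone family (H2B, H4, H2A), 1 bar per library. The bars of KO cells with oxLDL run from 0.289 to 0.5, those of WT cells with oxLDL reach at most 0.0134, and the untreated groups spread from 0.0183 to 0.384.

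By family, the H2B genes gave 70 counts in KO cells with oxLDL, 40 in untreated KO cells, 0 in WT cells with oxLDL and 36 in untreated WT cells. The H4 genes gave 15 counts in KO cells with oxLDL, 0 in untreated KO cells and in WT cells with oxLDL, and 2 in untreated WT cells. The H2A genes gave 4 counts in KO cells with oxLDL, 0 in untreated KO cells, 2 in WT cells with oxLDL and 3 in untreated WT cells. By counts, which are not corrected for transcript length, H2B was therefore the largest family in 3 groups. The 2 counts of WT cells with oxLDL were both from an H2A gene. In FPKM the order differed in KO cells with oxLDL. There the H4 genes averaged 0.128 (Hist1h4m) and 0.0165 (Hist1h4n). The H2B genes averaged 0.0663 (Hist1h2br), 0.0558 (Hist1h2bq) and 0.016 (Hist1h2bp). The number of the 8 genes with at least 1 count was 4, 3 and 8 in the libraries of KO cells with oxLDL, 3, 3 and 1 in untreated KO cells, 1, 0 and 1 in WT cells with oxLDL, and 5, 1 and 4 in untreated WT cells. Replicate 3 of KO cells with oxLDL was the one library with counts in all 8. That library also had counts in 38 of the 53 other clustered histone rows, against 14 to 28 in the other libraries. It held all counts of Hist1h4n and Hist1h2ao. Without it, KO cells with oxLDL held 54.4% of the summed level, and the calls given below for Hist1h2br and Hist1h2bq between KO and WT cells with oxLDL stayed past the threshold (edgeR, adjusted p = 0.0271 and 0.0381).

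Hist1h2br, an H2B gene with a transcript of the decay class, had 19, 13 and 5 counts in KO cells with oxLDL and 5, 9 and 0 in untreated KO cells. It had 0 counts in all 3 libraries of WT cells with oxLDL and 3, 0 and 11 counts in untreated WT cells. In FPKM these were 0.106, 0.0688 and 0.0237 in KO cells with oxLDL, 0.0273, 0.0503 and 0 in untreated KO cells, 0 throughout in WT cells with oxLDL, and 0.014, 0 and 0.0581 in untreated WT cells. The libraries of KO cells with oxLDL did not overlap those of WT cells with oxLDL, while they overlapped both untreated groups.

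Hist1h2bq, the mirror copy of Hist1h2br, had 12, 12 and 5 counts in KO cells with oxLDL, 5, 7 and 0 in untreated KO cells, 0 in each library of WT cells with oxLDL, and 2, 0 and 11 in untreated WT cells. Its FPKM values were 0.068, 0.0686 and 0.0307 in KO cells with oxLDL, 0.0272, 0.0412 and 0 in untreated KO cells, 0 in WT cells with oxLDL, and 0.0123, 0 and 0.0638 in untreated WT cells. The pair moved together library by library: both genes had 0 counts in the same 5 libraries and counts in the same 7. In 3 of those 7 the counts were equal, and in the other 4 Hist1h2br had more, by at most 7 counts. The 2 rows therefore cannot be read as separate measurements.

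Hist1h2bp, the H2B gene outside the mirrored block, ordered the groups differently. It had 3, 0 and 1 counts in KO cells with oxLDL, 10, 2 and 2 in untreated KO cells, 0, 0 and 0 in WT cells with oxLDL, and 3, 1 and 5 in untreated WT cells. Its FPKM values were 0.043, 0 and 0.00494 in KO cells with oxLDL, 0.171, 0.0344 and 0.0341 in untreated KO cells, 0 in WT cells with oxLDL, and 0.0437, 0.0123 and 0.0753 in untreated WT cells. It was the one gene of the 8 whose count was highest in an untreated KO library, and 10 of the 14 counts of that group came from replicate 1.

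Hist1h4m, an H4 gene, had 4, 4 and 5 counts in KO cells with oxLDL and 0 counts in all libraries of untreated KO cells and of WT cells with oxLDL. Untreated WT cells had 0, 0 and 2 counts. In FPKM, KO cells with oxLDL had 0.123, 0.124 and 0.137, and replicate 3 of untreated WT cells had 0.0626. Its 3 libraries of KO cells with oxLDL differed by 1 count and lay above all 9 others, at counts close to the floor of 3. The share of all genes with this order was not counted, so the order is not read as particular to Hist1h4m. Shares for pairs of groups are given below. Hist1h4n, the mirror copy of Hist1h4m, had 2 counts, both in replicate 3 of KO cells with oxLDL, and none elsewhere.

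The 3 H2A genes gave too few counts to order the groups. Hist1h2ap had 0, 0 and 2 counts in KO cells with oxLDL, none in untreated KO cells, 1, 0 and 1 in WT cells with oxLDL, and 1, 0 and 0 in untreated WT cells. Exactly the same 12 counts were listed for H2ac11 and H2ac12, other H2A genes of the table, so these 3 rows held no separate information. Hist1h2an had 1 count in replicate 3 of KO cells with oxLDL and 2 in replicate 1 of untreated WT cells. Hist1h2ao had 1 count, in replicate 3 of KO cells with oxLDL.

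**Figure D3:**
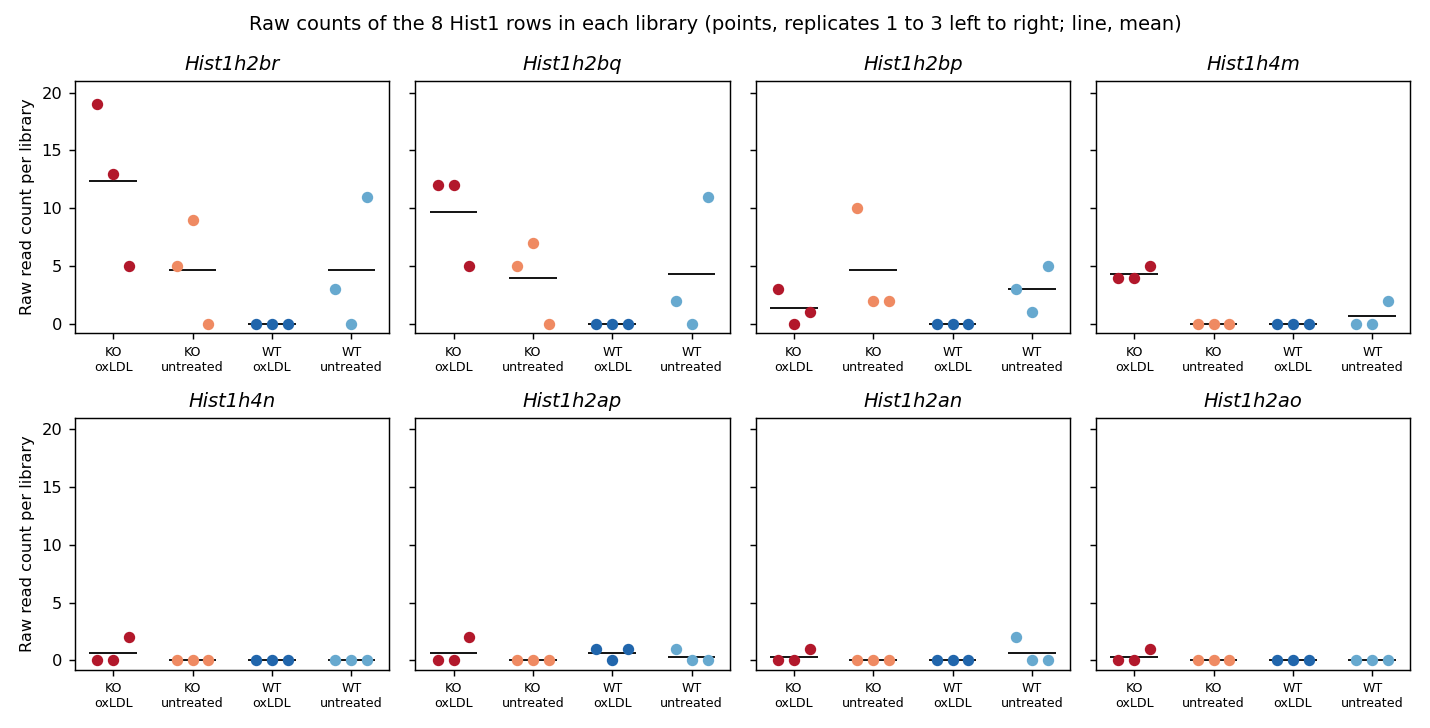
Raw read count (y axis, same scale in every panel) of each of the 8 Hist1 genes in each library, by group on the x axis. Points are libraries and lines are group means. Hist1h2br and Hist1h2bq show the same pattern, Hist1h4m is above 2 counts only in KO cells with oxLDL, and in WT cells with oxLDL all genes but Hist1h2ap are at 0.

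FPKM did not follow counts in the same proportion for every gene. The CPM of a gene divided by its FPKM gives the length over which the deposited FPKM spread a count, expressed here in bases. For Hist1h2br this length was 2344 to 2816 bases over the 7 libraries with counts, for Hist1h2bq it was 2138 to 2448 bases, and for Hist1h4m 421 to 480 bases over 4 libraries. Those 3 genes kept the ratio of highest to lowest within 1.2. For Hist1h2bp it ran from 761 to 2656 bases, a ratio of 3.49 over 8 libraries, and for Hist1h2ap from 555 to 3765 bases, a ratio of 6.78 over 4 libraries. Hist1h2an had 678 and 1398 bases in its 2 libraries. The 5 other clustered histone rows with at least 1000 counts had a ratio of 1.02 each.

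A difference in FPKM between libraries of Hist1h2bp, Hist1h2ap or Hist1h2an was thus not the same as a difference in reads. For Hist1h2bp, 3 counts in replicate 1 of KO cells with oxLDL were listed as 0.043 FPKM, and 1 count in replicate 3 of the same group as 0.00494 FPKM. Counts were used for the main tests and for the folds below. Alternative fits by limma used FPKM, and levels of other genes and lists are mostly given in FPKM.

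**Figure D4:**
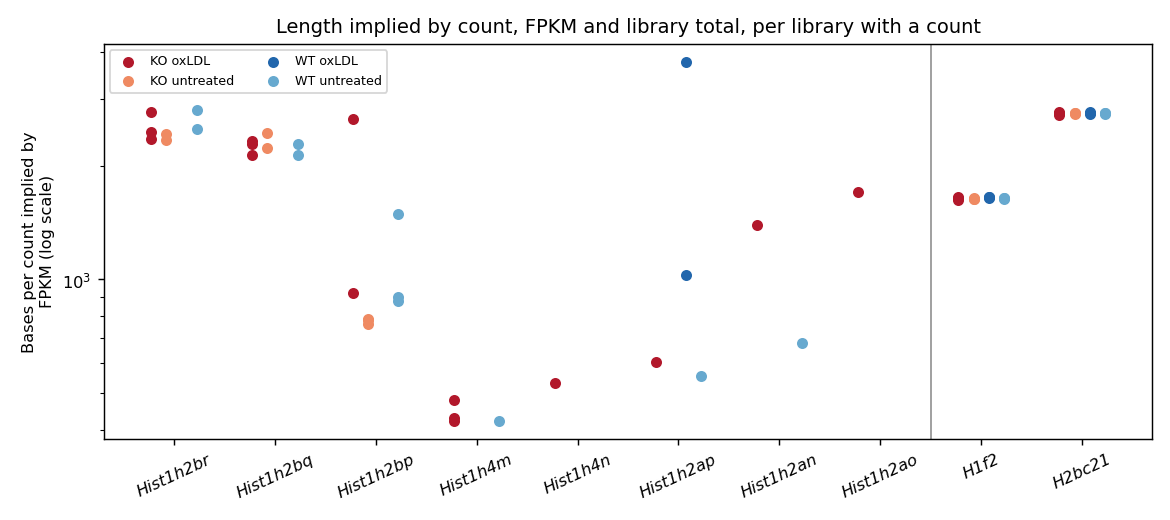
Length in bases implied by the count, the FPKM and the library total (y axis, log scale) for each library with a count, by gene and group. Points of Hist1h2br, Hist1h2bq and Hist1h4m lie close together, those of Hist1h2bp and Hist1h2ap spread over 3.49-fold and 6.78-fold, and the abundant rows H1f2 and H2bc21 are shown on the right.

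The filter on low counts kept 17291 genes, and only Hist1h2br and Hist1h2bq of the 8 passed it, through the libraries of KO cells with oxLDL together with replicate 3 of untreated WT cells. A gene that passed in this way had to be high somewhere, so the share of tested genes called carries no weight for the family. The other 6 genes were tested only in a fit without the filter.

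Genotype was first compared in the presence of oxLDL. Hist1h2br had 37 counts over the 3 libraries of KO cells with oxLDL and 0 over those of WT cells with oxLDL. Its KO counts were 8.86-fold above a floor of 3 counts over the WT group, scaled by effective library size. The difference had an adjusted p of 0.0221 (edgeR quasi-likelihood test, Benjamini-Hochberg). Folds against a floor, here and below, take the counts of the other group as observed, without their error. They are therefore not lower limits of a difference. Hist1h2bq had 29 counts in KO cells with oxLDL against 0 in WT cells with oxLDL, 6.95-fold above the floor (edgeR, adjusted p = 0.0291). Both were called at an adjusted p under 0.05, in a comparison in which 57.9% of all tested genes were called and 30.6% were called higher in KO cells. Leaving out replicate 1 of KO cells with oxLDL, or any 1 of the 3 libraries of WT cells with oxLDL, left neither gene called, and leaving out replicate 2 of KO cells with oxLDL left Hist1h2br alone.

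Hist1h4m, with 13 counts in KO and 0 in WT cells with oxLDL, was 3.11-fold above the floor in KO cells and was below the filter. Counting error alone put its 13 counts between 6.92 and 22.2 (95% Poisson limits). Hist1h2br, Hist1h2bq and Hist1h4m were the 3 genes of the 8 whose libraries did not overlap between these groups, and 30.0% of all 27294 genes had every library of KO cells with oxLDL above every library of WT cells with oxLDL. In the fit without the filter, edgeR called Hist1h2br and Hist1h2bq again and gave the other 6 genes adjusted p-values of at least 0.107. Hist1h2bp had 4 counts in KO cells with oxLDL against 0 in WT cells with oxLDL, which is too close to the floor for a fold.

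Treatment was then compared within KO cells. With 37 counts in treated and 14 in untreated KO cells, Hist1h2br had a log2 change of 1.36 ± 1.34 (SE), which did not pass the test (edgeR, adjusted p = 0.971). Hist1h2bq had 29 counts in treated and 12 in untreated KO cells and a log2 change of 1.23 ± 1.36 (edgeR, adjusted p = 0.982). Neither gene was called, in a comparison in which edgeR called 0.0116% of all tested genes, with 1211 genes at an unadjusted p under 0.05 and 97 genes called by DESeq2, neither histone among them. Hist1h4m had 13 counts in KO cells with oxLDL and 0 in untreated KO cells, 4.27-fold above the floor, with groups that did not overlap. Of all genes in the table, 5.47% had groups separated in that direction and 3.95% in the other. In the fit without the filter, edgeR gave all 8 genes an adjusted p of at least 0.84, Hist1h4m included. Hist1h2bp had 4 counts in treated and 14 in untreated KO cells, with overlapping libraries.

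Within WT cells, oxLDL libraries held fewer counts of 5 of the 8 genes, which were Hist1h2br, Hist1h2bq, Hist1h2bp, Hist1h4m and Hist1h2an, than untreated libraries. That direction was common over all genes. With scaling by library totals, the median log2 change of the 17291 tested genes was -0.46. In that scaling edgeR called 8322 of them lower and 2222 higher. The 5 genes are therefore not read as a trait of the family. Hist1h2br had 0 counts in treated WT cells and 14 in untreated ones, 3.46-fold above the floor. Hist1h2bq had 0 counts in treated WT cells and 13 in untreated ones, 3.21-fold above the floor. Neither was called by edgeR, with adjusted p-values of 0.0803 and 0.0857 and unadjusted p-values of 0.0439 and 0.0472, while 51.2% of all tested genes were called. DESeq2 called neither gene as well. The untreated WT counts came mainly from replicate 3, with 11 counts of each gene. Hist1h2bp had 0 counts in treated WT cells and 9 in untreated ones, 2.23-fold above the floor. Counting error alone put these 9 counts between 4.12 and 17.1 (95% Poisson limits). It was the one gene of the 8 whose groups did not overlap. Of all genes in the table, 33.4% were separated with treated WT cells lower and 10.4% in the other direction. Hist1h4m and Hist1h2an each had 0 counts in treated and 2 in untreated WT cells, which is under the floor in both groups.

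Between the untreated genotypes, Hist1h2br had 14 counts in KO and 14 in WT cells, and Hist1h2bq had 12 in KO and 13 in WT cells. The log2 difference was 0.07 ± 1.39 for Hist1h2br and -0.04 ± 1.36 for Hist1h2bq (SE; edgeR, adjusted p = 0.983 and 0.989), and its sign turned under other settings for both. Neither was called, against 31.0% of all tested genes, and with standard errors above 1 on the log2 scale a difference of several-fold was not detectable at this depth. Hist1h2bp had 14 counts in untreated KO and 9 in untreated WT cells, and none of the 8 genes had groups that did not overlap, against 10.3% of all genes with every KO library above every WT library and 20.6% with every one below. For the interaction, which is the oxLDL change in KO cells minus that in WT cells, edgeR gave Hist1h2br an adjusted p of 0.0702 and Hist1h2bq 0.0806, while 41.7% of all tested genes were called. The unadjusted p-values of the interaction were 0.0311 and 0.0367. The comparisons share groups, so their results are not separate observations.

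The other clustered histone rows were far more abundant, with summed levels of 107 ± 4.11 CPM in KO cells with oxLDL, 87.6 ± 8.68 in untreated KO cells, 21.5 ± 5.82 in WT cells with oxLDL and 64.1 ± 4.18 in untreated WT cells (SD, n = 3 each). WT cells with oxLDL were thus the lowest group for these rows as for the 8 genes. H1f2, the linker histone H1.2 gene formerly Hist1h1c, and H2bc21, the H2B gene formerly Hist2h2be, held 57.6% of these counts. H1f2 had 23.4, 24.1 and 23 FPKM in KO cells with oxLDL and 0.796, 1.04 and 0.553 FPKM in WT cells with oxLDL, a log2 difference of 4.60 ± 0.17 (SE; edgeR, adjusted p = 5.85e-12). Of the 16 such rows that passed the filter, 10 were called higher and 0 lower in KO than in WT cells with oxLDL, with a median log2 difference of 2.13 beside 0.05 over all tested genes. That is 62.5% called, beside 57.9% of all tested genes called and 30.6% called higher. A row had to be high somewhere to pass the filter. H2ac18, one of the 10, had at most 7 counts in any WT library and passed only through KO libraries. In WT cells 0 were called higher and 6 lower with oxLDL (9 lower with scaling by library totals, 5 with RLE size factors). That is 37.5% called lower, beside 27.2% of all tested genes. H2bc4, one of the 6 (edgeR, adjusted p = 0.0468), was called in only 6 of 20 alternatives. In KO cells none was called. Between untreated KO and WT cells 2 were higher (H1f2 and H2bc21) and 1 lower (H2aw, the H2A gene formerly Hist3h2a), which is 18.8% beside 31.0% of all tested genes. The call of H2aw was lost without replicate 1 or 3 of untreated KO cells, without replicate 2 or 3 of untreated WT cells, without the filter and with a replicate block. H3c14, an H3 gene with 2476 counts, was called in none of the comparisons with TMM scaling and all libraries in the fit. Its log2 difference was 0.80 ± 0.41 between KO and WT cells with oxLDL (SE; edgeR, adjusted p = 0.115). That difference was called with library totals and without replicate 3 of KO cells with oxLDL. The difference between untreated KO and WT cells was called without replicate 1 of untreated KO cells (edgeR, adjusted p = 0.0255).

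**Figure D5:**
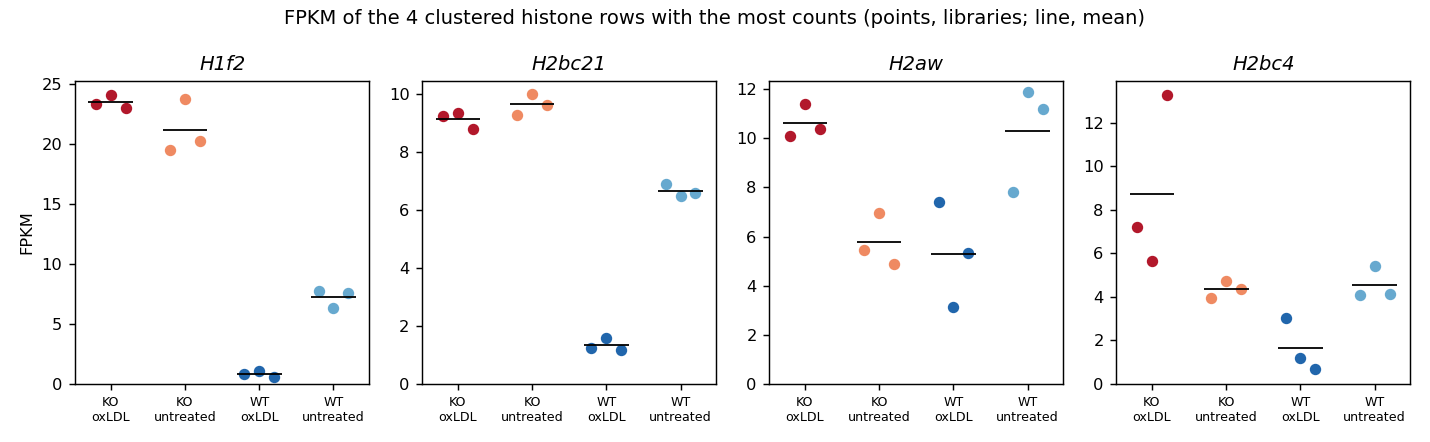
FPKM (y axis, from 0, own scale per panel) of H1f2, H2bc21, H2aw and H2bc4, the 4 other clustered histone rows with the most counts, in each library by group. Points are libraries and lines are means. H1f2 and H2bc21 have their lowest 3 libraries in WT cells with oxLDL, and H2bc4 reaches 13.3 FPKM in replicate 3 of KO cells with oxLDL.

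Of the genes that form or control histone message ends, 22 were tested. Slbp, which encodes the stem-loop binding protein, had 3.98 ± 0.409 FPKM in KO cells with oxLDL, 3.24 ± 0.18 in untreated KO cells, 3.17 ± 0.361 in WT cells with oxLDL and 4.55 ± 0.452 in untreated WT cells (SD, n = 3 each). Between KO and WT cells with oxLDL, edgeR called 4 of the 22 higher and 7 lower, and with scaling by library totals 10 higher and 4 lower. The 50% called was near the 57.9% called over all tested genes. Between untreated KO and WT cells 1 was called higher and 6 lower (0 and 12 with scaling by library totals), which is 31.8% beside 31.0% over all tested genes. With oxLDL, 6 were called higher and 7 lower in WT cells (3 and 15 with scaling by library totals), and none in KO cells. The WT calls were 59.1% of the list, beside 51.2% over all tested genes.

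Most tested markers of T and NK cells were lower in KO cells, as were most of those of macrophages, mast cells and neutrophils. Some other lists, given below, were mixed. The summed level of 8 T and NK cell markers was 0.578 to 0.804 FPKM in KO cells with oxLDL, 0.471 to 0.625 in untreated KO cells, 1.78 to 2.23 in WT cells with oxLDL and 3.98 to 4.41 in untreated WT cells. The sum thus also fell with oxLDL in WT cells. In KO cells it was mostly Cd4, with a mean of 0.625 FPKM with oxLDL and 0.551 untreated. The 11 macrophage markers summed to 10662 to 11303 FPKM in KO cells with oxLDL, 11099 to 11808 in untreated KO cells, 14940 to 15920 in WT cells with oxLDL and 21072 to 21470 in untreated WT cells. This sum is mostly Lyz2 and Cd68, and with oxLDL in WT cells edgeR called 6 of the 11 markers higher and 4 lower (3 and 6 with scaling by library totals). Of the 24 S phase and proliferation genes, 1 was called higher and 20 lower in untreated KO than in untreated WT cells, and 6 higher and 12 lower in KO than in WT cells with oxLDL (10 higher and 6 lower with scaling by library totals). In WT cells 2 were called higher and 14 lower with oxLDL (2 and 22 with scaling by library totals). In the order given, 87.5%, 75% and 66.7% of the 24 were called. Over all tested genes 31.0%, 57.9% and 51.2% were called in the same comparisons. The part of these differences in the histone counts was not tested. The general macrophage markers Lyz2, Cd68 and Adgre1 were at 149 FPKM or more in every library, whereas Gata6, a transcription factor of resident peritoneal macrophages, reached at most 0.278 FPKM and Timd4 at most 2.16 FPKM. These markers were not level over the groups. Adgre1 averaged 152 FPKM in KO cells with oxLDL, 158 in untreated KO cells, 762 in WT cells with oxLDL and 545 in untreated WT cells. In the same order Timd4 averaged 0.0935, 0.0126, 1.75 and 1.47 FPKM. Of the 11 markers, 1 (Cd68) was called higher and 9 lower in untreated KO than in untreated WT cells.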

How the data were processed

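Poly(A)-selected RNA was sequenced in pairs, per the labels' protocols. The authors deposited 1 table of raw read counts and FPKM per gene and library, per the file headers, with no counter, annotation or strand setting named in the labels. HISAT2 2.0, Bowtie 0.12.2 and build mm8 are named in the submitters' processing notes, but 99.92% of 21992 genes overlapped their GRCm38.p6 position in the RefSeq table, so positions are given as GRCm38. All 12 libraries were fitted as 4 groups with edgeR 4.0.16 (TMM, filterByExpr, quasi-likelihood test, no block) in R 4.3.3, with Benjamini-Hochberg adjustment over all 17291 genes and a threshold of 0.05. SE is the log2 change divided by the square root of F. CPM values use library totals. DESeq2 1.42.0, limma 3.58.1 on log2(FPKM + 1) and log2(FPKM + 0.1), other scalings, no filter, a replicate block and leaving out each library were alternatives.

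The steps were tested on simulated data, with changes placed only in genes of higher counts. That test did not cover genes as low as the 8. Floors cover counting error only, because PCR copies of a molecule are counted separately. Folds against a floor leave out the error of the other group's counts. Same-numbered libraries of different groups deviated with correlations of -0.04 to 0.03, so numbers were not taken as pairs. The members, lists and tests were chosen with earlier results of these data known. All 8 members were to be described in every library. From the other histone rows, those with at least 1000 counts were named after their values were seen, as were H2bc9, H2ac11 and H2ac12, and Slbp was chosen for its role. The other lists were 3 prime end formation, replacement histones, chaperones, S phase, and markers of macrophages and of 7 other cell types, named by their largest called changes.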

Additional observations from a re-analysis of the deposited data

Results flagged for a closer look

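Of the 16 tested clustered histone rows outside the 8 Hist1h genes, 5 had an oxLDL change that differed between genotypes by the test of the interaction (edgeR, 3 libraries in each of the 4 groups). That is 31.2% of the rows, beside 41.7% of all tested genes called. All 5 were in the higher direction, in which 22.1% of all tested genes were called. Hist1h2br and Hist1h2bq, the Hist1h genes tested, were not called with TMM scaling and all libraries in the fit. The interaction, given as the log2 change with oxLDL in KO cells minus that in WT cells, was 2.94 for H1f2, 1.85 for H2bc21, 2.07 for H2bc4 and 1.42 for H2aw, with adjusted p-values of 4.27e-08, 7.32e-08, 0.00991 and 0.00314. It was fitted at 5.99 for H2bc9 (adjusted p 0.0108), a value that rests on 1 count over the 3 libraries of WT cells with oxLDL. For H3c14 it was 0.00 ± 0.57 (SE), which was not called. For H1f2 the log2 change with oxLDL was 0.15 ± 0.13 in KO cells and -2.80 ± 0.17 in WT cells (SE), and for H2bc21 it was -0.08 ± 0.09 in KO cells and -1.93 ± 0.10 in WT cells. H2bc4 averaged 8.72 ± 4.03 FPKM in treated and 4.35 ± 0.408 in untreated KO cells, and 1.62 ± 1.23 in treated and 4.54 ± 0.744 in untreated WT cells (SD, n = 3 each). For H2aw the log2 change was 0.88 ± 0.23 in KO cells and -0.54 ± 0.24 in WT cells. The 5 interactions remained past the threshold in all 19 alternatives run for each. H2bc4 was 7.22, 5.67 and 13.3 FPKM in KO cells with oxLDL, and the highest of these came from replicate 3, the library with counts in all 8 Hist1h genes. Among the other genes named in the text, the interaction was also called for H2az2 (2.09), Cenpa (1.14), H3f3b (-0.86), Macroh2a1 (-0.76), Daxx (-2.29) and Adgre1 (-0.95), each in all 19 alternatives as well, and for Slbp (0.40, adjusted p 0.0313), which was called in 11 of 19 alternatives.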

How the results depend on the processing

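The calls of Hist1h2br and Hist1h2bq in KO against WT cells with oxLDL were made by edgeR with library totals, RLE size factors and no filter, by DESeq2 and by both limma fits. With the replicate block 1 gene was called (Hist1h2br, with Hist1h2bq at an adjusted p of 0.0606), and leaving out 1 library gave 0 to 2 called genes. The adjusted p ran from 0.0166 to 0.0584 for Hist1h2br and from 0.0232 to 0.0724 for Hist1h2bq when 1 library was left out, and from 0.0109 to 0.0497 and from 0.0173 to 0.0606 over the other alternatives. The interaction called 1 gene with library totals (Hist1h2br, adjusted p 0.0455) and 0 to 1 when 1 library was left out, the call coming without replicate 2 of untreated WT cells. The log2 difference between untreated KO and WT cells turned sign for Hist1h2br with library totals (-0.04) and the replicate block (-0.14), and ran from -0.79 to 1.56 without 1 library (negative values -0.79, -0.17 and -0.47). For Hist1h2bq it ran from -0.68 to 1.85 without 1 library (positive values 0.53 and 1.85). The cause of these changes was not tested. Fits on 2 groups alone kept none of the 8 genes past the filter and gave no value. The replicate block changed no other call of the 8 genes, and the counts of called members in the remaining comparisons were 0 in every alternative. Leaving out 1 library, an alternative chosen after seeing the data, put the share of the summed level at 46.4 to 59.4% in KO cells with oxLDL, 18.5 to 30.2% in untreated KO cells, 0.886 to 1.76% in WT cells with oxLDL and 12.4 to 31.5% in untreated WT cells. Scaling by library totals put the median log2 change of all genes at -0.46 for oxLDL in WT cells, 0.36 for KO against WT cells with oxLDL, -0.12 for KO against WT untreated and 0.49 for the interaction. For oxLDL in KO cells edgeR called 2 genes of all tested and DESeq2 97. At this depth 4 of the 8 genes had 5 counts or fewer over all libraries.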

Other observations

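Replacement and variant histones, many of which are also made outside S phase from polyadenylated messages, were summed as 1 list, below called replacement histones. Their sum was well above the 8 Hist1h genes, at 259 to 299 FPKM in KO cells with oxLDL, 256 to 285 in untreated KO cells, 312 to 352 in WT cells with oxLDL and 280 to 308 in untreated WT cells. Of the 11 tested, edgeR called 4 higher and 4 lower in KO than in WT cells with oxLDL, with Cenpa (the centromeric H3 variant) at a log2 difference of 2.32 and H2az2 (an H2A.Z gene) at 1.74, and Macroh2a1 (a macroH2A gene) at -1.07 and H3f3b (an H3.3 gene) at -0.72. In WT cells 4 were called higher and 4 lower with oxLDL, and H2az2 had a log2 change of -2.18. Between untreated KO and WT cells 2 were higher and 2 lower. Of 17 histone chaperone genes, 7 were called higher and 3 lower in KO than in WT cells with oxLDL, 2 higher and 8 lower with oxLDL in WT cells, and 3 higher and 6 lower in untreated KO than in untreated WT cells. Daxx, a chaperone of H3.3, had a log2 difference of -3.33 between KO and WT cells with oxLDL. None of either list was called for oxLDL in KO cells. In KO against WT cells with oxLDL, 72.7% of the replacement histones and 58.8% of the chaperones were called, beside 57.9% of all tested genes. For oxLDL in WT cells the shares were 72.7% and 58.8%, beside 51.2%. Between untreated KO and WT cells they were 36.4% and 52.9%, beside 31.0%. With scaling by library totals, the replacement histones gave 5 higher and 2 lower, and the chaperones 13 higher and 2 lower, in KO than in WT cells with oxLDL. In the same scaling they gave 2 higher and 6 lower, and 1 higher and 15 lower, with oxLDL in WT cells, and 2 higher and 4 lower, and 1 higher and 10 lower, in untreated KO than in untreated WT cells.

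Among marker lists, edgeR called 1 of 11 macrophage markers higher (Cd68) and 9 lower in untreated KO than in untreated WT cells, and 1 higher and 8 lower with oxLDL present. Over all tested genes, 31.0% were called between untreated KO and WT cells (16.2% lower in KO cells) and 57.9% with oxLDL (27.4% lower). For T and NK cells 6 of 7 tested markers were lower in KO cells in both comparisons, and for mast cells 5 of 5 untreated and 4 of 5 with oxLDL. For B cells 1 of 7 was lower untreated, and 1 was higher and 2 lower with oxLDL. Both tested neutrophil markers were lower in KO cells in both comparisons. For mesothelial cells and fibroblasts 3 of 10 were lower untreated and 4 of 10 with oxLDL, and for dendritic cells 1 was higher and 1 lower of 5 untreated, and 2 higher and 1 lower with oxLDL. No erythroid marker passed the filter, and their summed level was at most 0.4 FPKM in any library.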
